A study of Mus musculus with 288 samples.

Results

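The 38 genes described here code for the machinery of DNA replication and S phase, and they were taken by name from the 54232 gene rows of a single-cell RNA count table, in which 29287 rows held at least 1 read. None was chosen for its level. By role, 10 belong to the replicative helicase and its loading, 8 to polymerases and the fork, 3 to nucleotide supply, 5 to chromatin, 6 are cyclins and other regulators, and 6 act in repair. The cells were E14, a mouse embryonic stem cell line from strain 129/Ola, sorted as single cells into 96 wells for each of 3 labels. D0 (0 h) was the culture in 2i+LIF, a serum-free N2B27 medium with the GSK3 inhibitor CHIR99021, the MEK inhibitor PD0325901 and leukaemia inhibitory factor (LIF), and D1 and D2 were taken 24 h and 48 h after the change to serum+LIF. All cells thus had LIF throughout, and all were incubated with the GpC methyltransferase M.CviPI before their polyA RNA was captured, because DNA methylation and accessibility were read from the same cells. The labels name no separate cultures and 1 plate per time, so time, culture, plate and library cannot be told apart. No test between labels was possible, no p-value is given, and every ± is the SD between cells.

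Origins are licensed in G1, when origin recognition proteins, Cdc6 and Cdt1 load the Mcm2 to Mcm7 helicase onto DNA. DNA synthesis starts in S phase, when kinases join Cdc45 and the GINS complex to the helicase, polymerases copy both strands behind it with the sliding clamp Pcna, and ribonucleotide reductase and thymidylate synthase supply the building blocks. Many of these genes are known targets of the E2F transcription factors, which cyclin E activity helps to release from the retinoblastoma protein. Mouse embryonic stem cells are known for a short G1 and a large share of cells in S phase.

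The E2F motif was searched in the promoters because E2F is the shared regulator named for this pathway. The motif is TTTCCCGC, TTTCGCGC, TTTGCCGC or TTTGGCGC on either strand, within a stretch from 250 bases before to 50 bases after the transcription start (RefSeq, GRCm38.p6). Promoters were at hand for 30 of the 38 genes, and not for Mcm4, Gins2, Gmnn, Rfc2, Tipin, Ccne2, Usp1 and Exo1. A match lay in 11 of the 30 (36.7%), against 2.60% of 27025 genes with a promoter of the same length. At least 2 matches lay in 4 of them, Mcm3, Mcm5, Mcm6 and Mcm7, which is 13.3% against 0.107% of all genes. A match is a stretch of letters and does not show that a factor was bound. Stretches of 30 bases with the motif in capitals are shown for 7 genes whose levels are described below. They were read 5′ to 3′ on the strand of the gene. The Mcm genes and Cdc6 are shown as the helicase and its loader, Pola1, Dtl and Hells as genes past or near a 2-fold difference in other roles. Mcm5 lies at chr8:75109347-75109376 on the plus strand, Mcm6 at chr1:128359795-128359824 on the minus strand and Mcm3 at chr1:20820266-20820295 on the minus strand. Cdc6 lies at chr11:98908002-98908031 on the plus strand, Pola1 at chrX:93632275-93632304 on the minus strand, Dtl at chr1:191575534-191575563 on the minus strand and Hells at chr19:38930917-38930946 on the plus strand.
Mcm5: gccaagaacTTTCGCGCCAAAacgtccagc
Mcm6: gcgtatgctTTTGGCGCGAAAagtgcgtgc
Mcm3: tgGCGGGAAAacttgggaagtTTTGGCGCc
Cdc6: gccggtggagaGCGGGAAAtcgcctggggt
Pola1: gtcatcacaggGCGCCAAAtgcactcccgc
Dtl: cgtgacgtcagTTTGGCGCggagtttggcg
Hells: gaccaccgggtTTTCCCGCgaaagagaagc

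In Mcm5 and Mcm6 the 12 capitals were 2 motifs on opposite strands that shared bases, and in Mcm3 the 2 motifs stood apart. The first match of each gene shown began between 153 bases before and 19 bases after the start.

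After filters on reads, genes and mitochondrial reads, 90 D0, 50 D1 and 93 D2 cells remained of 96 each. They held medians of 1610758.5, 7956161.5 and 2162090.0 reads, ranging from 202157 to 43336922 over all cells. With every cell thinned to 200000 reads, the median cell had 7826.5 genes with a read in D0, 8042.5 in D1 and 3950.0 in D2, so D2 cells showed the fewest genes at the same depth. All 8 pluripotency markers were read in each label, with a summed level of 5208, 6750 and 10911 reads per 1000000 reads of the cell (CPM) on average. The endoderm, trophectoderm, mesoderm, ectoderm and fibroblast lists had averages between 0.0842 and 37.1 CPM in sum, with up to 3 genes of a list at 0 and Foxa2 at 0 in every label. All 5 genes of the 2-cell-like list were at 0 in all cells. D1 cells stood apart in 2 ways that the labels do not describe. Hprt was read in 48 of 50 D1 cells at a mean of 207 CPM, against 9 D0 cells and 7 D2 cells at means of 3.08 and 2.68 CPM, and the 4 Y-linked genes summed to 269 CPM in D1 against 22.9 and 5.21 CPM. For the origin of the line, the study's methods cite work on mouse embryos made from HPRT-deficient cultured cells. Which plates depart from the named line was not tested. A difference of line or clone between the D1 plate and the others cannot be told apart from time, which holds for every D1 ratio below. In 18 cells Hprt went against the rest of their own label, and the counts past 2-fold, the shares of high cells and the Mcm correlations of the 38 genes are also given without them.

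Taken as a whole, the 38 genes held about the same share of a cell's reads in each label: 0.858 ± 0.226% in D0 (n = 90 cells), 0.817 ± 0.249% in D1 (n = 50) and 0.976 ± 0.337% in D2 (n = 93). The ranges of cells overlapped for all 38 genes in every pair of labels. As the lowest cells of most genes were at or near 0, this overlap separates nothing. Ratios below are log2 of (mean CPM + 1) in 1 label over that in the other, each cell having equal weight. A ratio was counted only if 50% or more of the cells in one of the pair of labels had a read of the gene, and the limit was 2-fold. At D1 over D0, 3 of 38 genes were at least 2-fold higher, against 13.2% of 10494 genes, and 3 were at least 2-fold lower, against 25.1%. At D2 over D0, 5 of 36 were higher, against 9.74% of 8822 genes, and 5 were lower, against 28.1%. At D2 over D1, 6 of 38 were higher and 4 lower, against 15.0% and 19.4% of 9855 genes. The median ratio of the 38 genes was 0.00 at D1 over D0, 0.25 at D2 over D0 and 0.12 at D2 over D1, beside medians of -0.20, -0.24 and -0.07 over all genes counted. With TMM factors on summed reads, 17.6% of all genes were higher and 18.8% lower at D1 over D0. The 38 genes then had 6 higher and 4 lower at D1. At D2 over D0, 19.5% of all genes were higher and 24.5% lower with these factors. In either direction this was 43.9% of all genes and 12 of 36 of the genes described here. Without the cells apart in Hprt, the counts were 3 higher and 4 lower, then 6 and 6, then 5 and 4. Over all genes the shares were then 13.4% and 25.6%, 9.7% and 28.5%, and 15.9% and 19.7%.

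**Figure D1:**
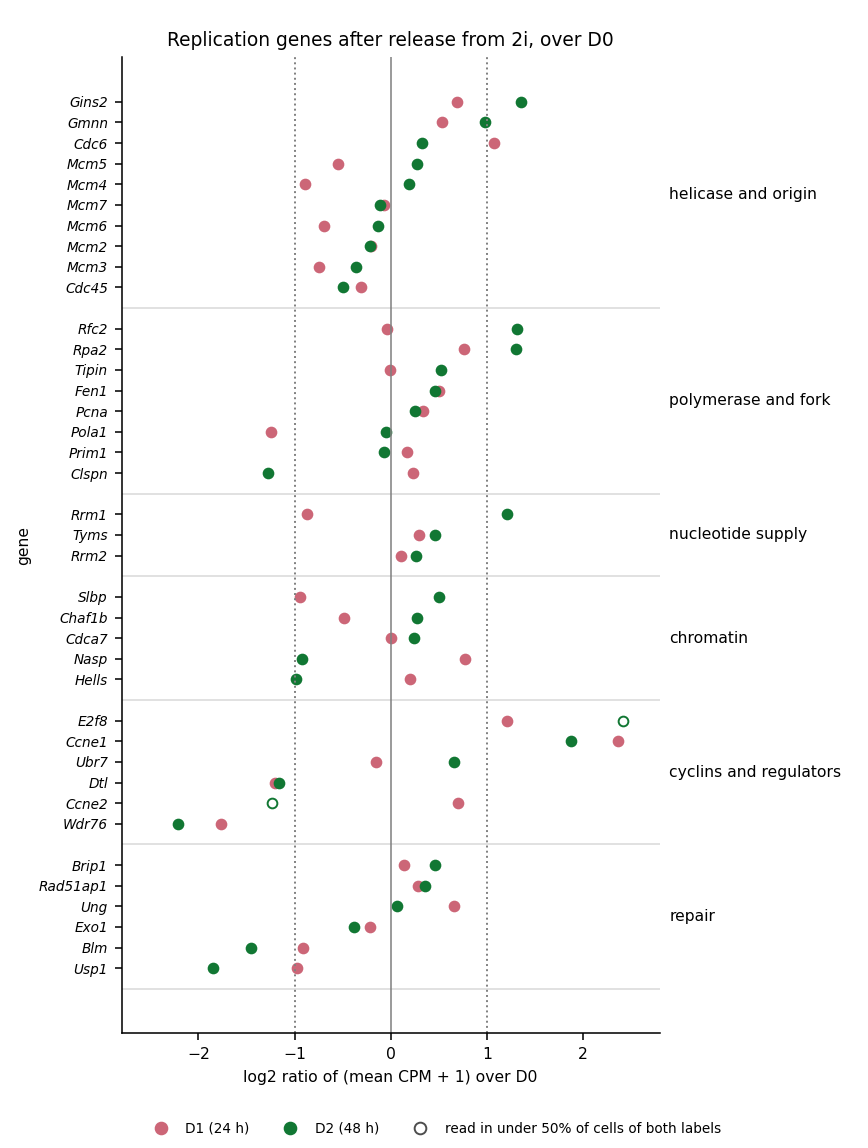
Log2 ratio of (mean CPM + 1) over D0 for each of the 38 genes, by role, at D1 (red) and D2 (green), with dotted lines at 2-fold and open circles where the gene was read in under 50% of the cells of both labels. Ccne1 lies to the right and Wdr76 and Dtl to the left of the 2-fold lines at both times, while the Mcm genes lie inside them.

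By their means, the helicase genes mostly kept within 2-fold. Mcm2 to Mcm7 are the 6 subunits of the ring that unwinds DNA. Mcm5 ran from 0 through a median of 605 to 1637 CPM in D0 cells, from 10.5 through 390 to 1336 CPM in D1 cells and from 0 through 714 to 2488 CPM in D2 cells, and its means were 601 ± 333, 411 ± 286 and 725 ± 606 CPM. D1 was thus the lowest label in mean and median, with wide overlap. The ratios of mean CPM at D1 over D0 ran from -0.89 for Mcm4 to -0.07 for Mcm7. The sign depended on the scaling for Mcm7, at 0.17 with reads summed over cells and 0.38 with TMM factors, and for Mcm2, at -0.21 by means and 0.11 with TMM factors. At D2 over D0 they lay between -0.36 for Mcm3 and 0.27 for Mcm5, and TMM factors turned Mcm2 from -0.21 to 0.22, Mcm6 from -0.13 to 0.06 and Mcm7 from -0.11 to 0.42. With medians in place of means, Mcm4 turned from 0.19 to -1.30. Mcm4 showed the widest cells at D2, from 0 through a median of 151 to 8060 CPM, so its mean of 446 ± 997 CPM lay above 391 ± 240 CPM in D0 while its median lay below the D0 median of 372 CPM. At D2 over D1 the mean ratio of Mcm4 was 1.08, and its sign turned to -0.20 with medians in place of means.

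Cdc6, which loads the helicase, had the highest D1 ratio of the helicase group, at 1.08. Its cells ran from 0 through a median of 78.4 to 376 CPM in D0, from 0 through 136 to 1117 CPM in D1 and from 0 through 1.37 to 1581 CPM in D2. The highest cells of D1 and D2 lay above the highest of D0 and the median D2 cell was near 0, although the D2 mean of 115 ± 265 CPM was above the D0 mean of 91.5 ± 86.2 CPM. Geminin (Gmnn), the inhibitor of the loading factor Cdt1, had means of 181 ± 114, 262 ± 129 and 357 ± 275 CPM, with ratios over D0 of 0.53 and 0.98. Gins2, a subunit of GINS, had 56.5 ± 45.1, 92.1 ± 54.2 and 146 ± 228 CPM and passed the limit at D2 with 1.35. Of its exon length, 67.3% is shared with Gse1 on the other strand, and whether the counting used strand is not given in the sources used here, so its reads are uncertain. Cdc45 had means of 119 ± 103, 95.7 ± 94.5 and 83.7 ± 208 CPM. Its D1 ratio of -0.31 turned to 0.08 with reads summed over cells and 0.28 with TMM factors. It was read in 29% of thinned D2 cells against 78.9% in D0.

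Among polymerase and fork genes, Rfc2 and Rpa2 were more than 2-fold higher at D2 and Clspn more than 2-fold lower. Rfc2, a subunit of the clamp loader, ran from 0 through 124 to 642 CPM in D0, from 0 through 135 to 368 CPM in D1 and from 0 through 202 to 2950 CPM in D2. The highest D2 cells lay above all other cells, and the ratio was 1.32 over D0 and 1.35 over D1. Of its exon length, 15.1% is shared with another gene. Rpa2, a subunit of the single-strand binding protein RPA, had means of 208 ± 163, 354 ± 232 and 515 ± 465 CPM, with medians of 171, 342 and 433 CPM, so both measures were in the order D0, D1, D2. Pcna, the sliding clamp, had 330 ± 157, 417 ± 239 and 392 ± 260 CPM, and Tipin, which protects the fork, had 496 ± 274, 495 ± 269 and 714 ± 442 CPM. Both were read in at least 96.8% of thinned cells in every label.

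Pola1, the catalytic subunit of the polymerase that makes primers, differed in the other direction at D1. It ran from 0 through 193 to 837 CPM in D0, from 0 through 88.6 to 277 CPM in D1 and from 0 through 5.31 to 3872 CPM in D2. The D1 cells lay lower with a ratio of -1.24, while at D2 a low median went with a mean of 214 ± 561 CPM, near the 222 ± 157 CPM of D0. Prim1, the primase subunit of the same complex, had 164 ± 130, 185 ± 105 and 157 ± 216 CPM. Clspn, the Claspin adaptor of the replication checkpoint, had 36.7 ± 39.6, 43.3 ± 45.1 and 14.5 ± 44.3 CPM, and its ratio at D2 was -1.28 over D0 and -1.51 over D1. Fen1, the flap nuclease of Okazaki fragments, was listed at only 4.01, 6.08 and 5.88 CPM. As 84.2% of its exon length is shared with genes on the other strand, its level is uncertain and no order was read from it.

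Of the genes of nucleotide supply, Rrm1 differed most. Rrm1, the large subunit of ribonucleotide reductase, ran from 0 through 329 to 1513 CPM in D0, from 5.40 through 191 to 690 CPM in D1 and from 0 through 399 to 11753 CPM in D2. Its D1 cells were lowest in mean and median, and a few D2 cells lay far above all others. The ratios were -0.87 at D1 over D0, 1.22 at D2 over D0 and 2.09 at D2 over D1. Rrm2, the small subunit, had 314 ± 239, 339 ± 240 and 378 ± 408 CPM, and Tyms, thymidylate synthase, had 159 ± 86.8, 195 ± 90.6 and 218 ± 213 CPM. Neither passed 2-fold in any pair of labels.

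The chromatin genes split between D1 and D2. Nasp, a histone chaperone, ran from 0 through 386 to 1237 CPM in D0, from 171 through 725 to 1733 CPM in D1 and from 0 through 179 to 1277 CPM in D2. No D1 cell was without Nasp, and the ratios were 0.77 at D1 over D0, -0.92 at D2 over D0 and -1.69 at D2 over D1. Hells, a chromatin remodeller needed for DNA methylation at repeats, had 639 ± 506, 735 ± 484 and 322 ± 512 CPM, with a ratio of -0.99 at D2 over D0 and -1.19 at D2 over D1. Cdca7, the partner of Hells, had 164 ± 100, 165 ± 109 and 194 ± 294 CPM, so its mean was not lower at D2, while its median was 151, 148 and 69.2 CPM. Slbp, which binds the stem-loop of histone mRNA, was the reverse of Nasp, with means of 316 ± 197, 164 ± 100 and 447 ± 687 CPM and a ratio of 1.44 at D2 over D1. Chaf1b, a subunit of the chromatin assembly factor CAF-1, had 136 ± 99.6, 97.3 ± 72.4 and 165 ± 284 CPM, with medians of 129, 86.5 and 1.93 CPM.

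Ccne1, which codes for cyclin E1, the partner of Cdk2 at the entry into S phase, had the highest ratio of all 38 genes at D1. It ran from 0 through a median of 47.2 to 461 CPM in D0 cells, from 0 through 335 to 1871 CPM in D1 cells and from 0 through 147 to 1638 CPM in D2 cells. The D1 and D2 medians were both above the D0 median, and the cells still overlapped. The means were 77 ± 85.2, 402 ± 357 and 286 ± 341 CPM, which gave ratios of 2.37 and 1.88 over D0. With reads summed over cells, the levels were 89.6 CPM (95% exact Poisson interval 88.3 to 90.9), 395 CPM (394 to 397) and 266 CPM (264 to 268). These intervals cover counting error only and not the spread between cells or cultures. Reads without molecular identifiers are not independent molecules.

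Cyclin E2 (Ccne2) had 19.8 ± 55.5, 32.9 ± 33.3 and 7.89 ± 26.3 CPM, and D1 had the highest mean, as for Ccne1. In plate columns 1 to 6, however, its ratio at D1 over D0 turned from 0.703 to -0.135. Of the exon length of Ccne2, 17.4% is shared with Ints8 on the other strand. Ccne2 was read in 40%, 76% and 20.4% of thinned cells, and its ratio at D2 over D1 was -1.93. E2f8, an E2F family repressor, had means of 9.75 ± 20.7, 24.0 ± 32.8 and 56.4 ± 235 CPM. Its D2 mean rested on few cells, since it was read in 22.6% of thinned D2 cells with a highest cell of 1670 CPM. Its ratio at D1 over D0 was 1.22, and at D2 over D0 neither E2f8 nor Ccne2 reached the 50% of cells needed to be counted. Dtl, the substrate receptor through which Cdt1 is degraded during S phase, had 179 ± 175, 77.2 ± 64.4 and 79.6 ± 259 CPM, with ratios over D0 of -1.20 and -1.16.

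Wdr76, a WD-repeat protein, had the lowest ratio of the 38 genes at both times. It ran from 12.7 through 152 to 397 CPM in D0, from 0 through 32.1 to 456 CPM in D1 and from 0 through 0 to 740 CPM in D2. Every D0 cell had a read, while at equal depth the gene was read in 84% of D1 cells and 31.2% of D2 cells (exact 95% interval 22% to 41.6%, counting error only). The ratios over D0 were -1.77 and -2.21. Ubr7, a UBR-box protein, had 116 ± 107, 104 ± 83 and 183 ± 375 CPM, so its means stayed within 2-fold, while its medians were 88.1, 74.1 and 6.28 CPM and thus lowest at D2.

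**Figure D2:**
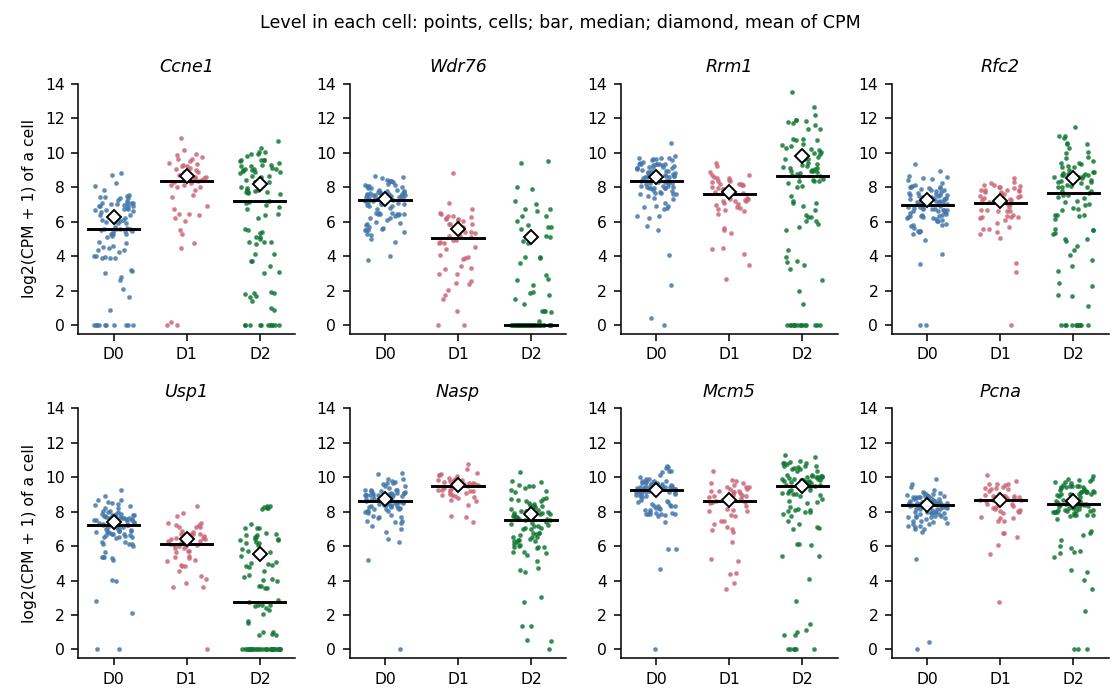
Level of 8 genes in each cell as log2(CPM + 1), with points for cells of D0 (blue), D1 (red) and D2 (green), bars for medians and diamonds for the mean of CPM. In D2 the diamond lies above the bar in each panel, most for Wdr76 and Usp1, and many D2 cells lie at 0 for those genes.

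Of the 6 repair genes, Usp1 and Blm were at least 2-fold lower at D2 over D0, where 28.1% of all genes were. Usp1, the deubiquitinase of Pcna, ran from 0 through 151 to 623 CPM in D0, from 0 through 69.8 to 318 CPM in D1 and from 0 through 5.85 to 326 CPM in D2. Mean and median were highest in D0 and lowest in D2, and the ratios over D0 were -0.98 and -1.85. Blm, a RecQ helicase, had 94.2 ± 98.5, 49.4 ± 31.7 and 33.9 ± 103 CPM, with -0.92 and -1.45. Exo1, an exonuclease of mismatch repair, had 107 ± 114, 92.1 ± 110 and 82.1 ± 170 CPM. Brip1, a helicase that binds Brca1, had 32.6 ± 51, 35.9 ± 34.3 and 45.3 ± 141 CPM, and Rad51ap1, which acts in homologous recombination, had 37.7 ± 43.1, 46.1 ± 48.9 and 48.7 ± 150 CPM. Ung, which removes uracil from DNA, had 92.8 ± 65.7, 148 ± 105 and 97.6 ± 141 CPM. The means of these last 4 stayed within 2-fold in every pair of labels. Their median D2 cells lay lower, at 0.568 CPM for Exo1 against 78.1 CPM in D0, 21.9 against 89.1 CPM for Ung, and 0 for Brip1 and Rad51ap1 against 5.88 and 23.3 CPM.

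Per kilobase of exon, a scale on which genes can be compared, Tipin was the most abundant of the 38 in every label, at 265, 265 and 382 CPM per kb. Mcm3, Mcm5 and Pcna followed in D0 at 152, 150 and 137 CPM per kb, and their cells overlapped widely. Gmnn was second in D1 and D2, at 179 and 243 CPM per kb. Ccne1 moved from rank 22 of 38 in D0, at 28.9 CPM per kb, to rank 4 in D1 at 151 and rank 10 in D2 at 107 CPM per kb. Among the lowest were E2f8, Brip1 and Clspn in D0, each under 6 CPM per kb.

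The D2 means and the D2 cells gave different pictures. At D2 over D0 the mean was higher for 22 genes and lower for 16. Over all 8822 genes counted, it was higher for 3723 and lower for 5099. The median cell was higher for 11 of the 38 genes, lower for 25 and equal for 2. With medians in place of means, 2 genes were at least 2-fold higher and 19 at least 2-fold lower at D2 over D0, beside 4.28% and 71.2% of all genes counted. At D2 over D1 the medians gave 2 genes higher and 22 lower, where the means gave 6 and 4, beside 2.88% and 67.1% of all genes. At equal depth, 36 of the 38 genes were read in a smaller share of D2 than of D0 cells. Of those, 20 had a higher mean, a count not made over all genes. Of the 36 genes counted at D2 over D0, 34 had a smaller share (94.4%), near the 89.8% of all genes counted. A median gene was read in 95.6% of D0, 98.0% of D1 and 81.2% of D2 cells. The median coefficient of variation of the genes with a mean of at least 100 CPM was 0.634, 0.658 and 1.28 for D0, D1 and D2. Over all genes at that level it was 0.664, 0.637 and 1.29, so the wider spread at D2 was not particular to these genes. The cells in the top 10% for a gene held over 50% of its CPM for 2 genes in D0, none in D1 (0 of 38) and 18 in D2. Among genes with a mean of at least 100 CPM, this was so at D2 for 6 of 25 (24%), beside 34.5% of all 2150 genes at that level. The part of this concentration in the D2 ratios was not tested.

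To describe cells, a score was formed as the mean over the 38 genes of log2(CPM + 10) at 200000 reads. The D0 cells had 6.91 ± 0.56, the D1 cells 6.87 ± 0.66 and the D2 cells 6.11 ± 0.54. A cell was called high above the pooled median of 6.68, with labels weighted equally, which 63 of 90 D0 cells (70%, exact 95% interval 59.4% to 79.2%), 34 of 50 D1 cells (68%, 53.3% to 80.5%) and 11 of 93 D2 cells (11.8%, 6.05% to 20.2%) passed. These intervals cover counting error only, as the cells of a label come from 1 plate. Within 0.1 of that limit lay 16, 3 and 9 cells. The summed CPM of the same genes went the other way, at 8594 ± 2281, 8143 ± 2531 and 9765 ± 3386 CPM, and by that measure 45.6%, 44% and 60.2% of cells were high. Without the cells apart in Hprt, 69.1%, 68.8% and 11.6% of cells were high by the score. The score weighs each gene alike and counts genes at 0, of which D2 cells had more: a median of 34, 36 and 25 of the 38 genes had a read. Because the measures disagree for D2, no order of D2 against D0 or D1 was read from either, and the score is no measure of the share of cells in S phase.

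**Figure D3:**
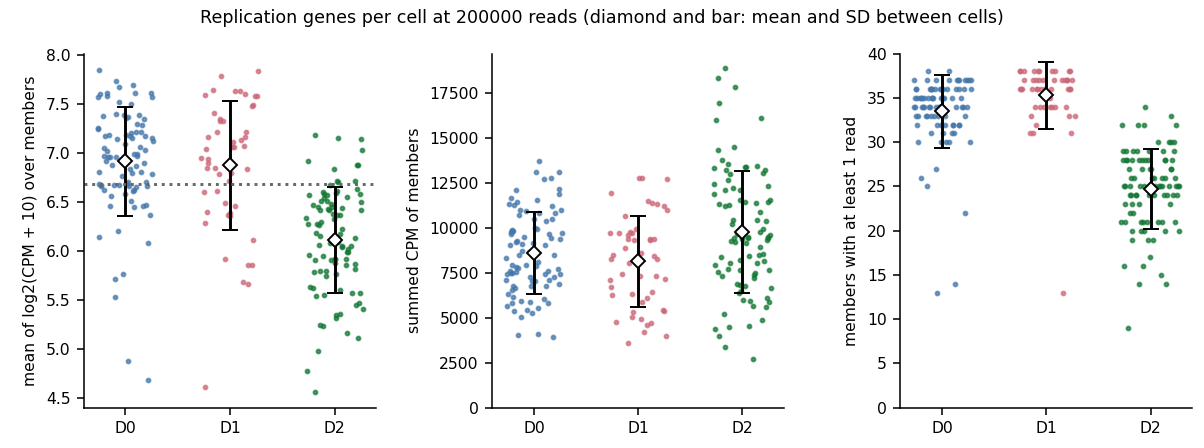
Replication genes per cell after thinning to 200000 reads, as the mean of log2(CPM + 10) with the limit of 6.68 dotted (left), the summed CPM (middle) and the number of the 38 genes with a read (right), with diamonds and bars for mean and SD between cells. D2 cells lie lower on the left and right and slightly higher in the middle.

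Within a label, the genes co-varied across cells. Spearman correlations were computed at equal depth between genes that 50% or more of that label's cells had a read of, and they are descriptions. All points share a plate, and the CPM of a cell share 1 total. In D0 the median over 595 pairs of 35 genes was 0.13, with 84.2% of pairs above 0, against a median of 0.03 and 60.6% over all pairs of 7528 genes. In D1 it was 0.18 over 703 pairs of all 38 genes, with 78.7% above 0, against 0.06 and 61.7%, and in D2 0.05 over 300 pairs of 25 genes, with 70.7% above 0, against 0.01 and 55.2%. Over the same 25 genes, the medians were 0.15, 0.20 and 0.05, and 85.7%, 77% and 70.7% of pairs were above 0, so D1 had the highest median and D0 the largest share above 0. The D1 cells were the most deeply sequenced before thinning. In D1 the score also moved with the number of genes detected (rho 0.47 over 50 cells) and with reads before thinning (0.42), which in D0 gave 0.09 and 0.11 over 90 cells and in D2 0.40 and -0.08 over 93 cells.

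The pair with the highest correlation was of 2 subunits of the helicase ring in D0 and in D1, and the ring was set apart after these pairs were seen. Over the 15 pairs of Mcm2 to Mcm7, D0 cells had a median of 0.34, D1 cells 0.68 and D2 cells 0.06. With Pearson r the medians were 0.58, 0.67 and 0.06, so D0 and D1 lay closer together by that measure. In D1 the pairs ranged from 0.54 to 0.80, led by Mcm2 and Mcm3, and in D0 from 0.01 to 0.52, led by Mcm5 and Mcm6. In D2 they ranged from -0.10 to 0.19, and the highest of the 300 pairs in that label was Rpa2 with Slbp (0.34). Without the cells apart in Hprt the medians were 0.33, 0.69 and 0.03. Cells of plate columns 1 to 6 gave 0.30, 0.69 and 0.11, and those of columns 7 to 12 gave 0.44, 0.69 and 0.02. Outside the ring, Pcna went with Tipin (0.49) and Slbp (0.49) in D0, and Rrm2 with Ccne1 (0.44). In D1, Nasp went against the ring, at -0.41 with Mcm5, -0.35 with Mcm7 and -0.35 with Mcm2.

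Of the 25 genes read in enough cells of every label, Mcm6, Rrm2, Ccne1 and Pcna had the highest correlation with the mean of the other 37 genes, averaged over labels, at 0.52, 0.51, 0.49 and 0.48. Cdc6 had 0.51 in D0 and 0.83 in D1, and was read in too few D2 cells. Pola1, Gmnn and Cdca7 were the lowest of the 25, at 0.07, 0.14 and 0.14, and Gmnn stood at 0.36 in D0 and -0.11 in D1. In D0, Pola1 and Wdr76 went against each other (-0.34).

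**Figure D4:**
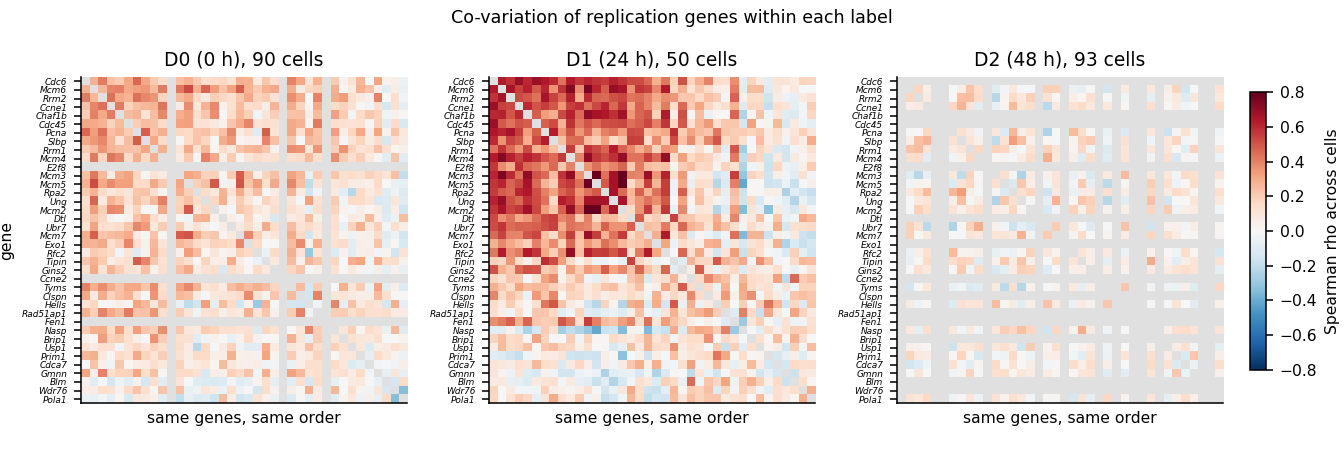
Spearman correlation of each pair of the 38 genes across D0, D1 and D2 cells at equal depth, with genes ordered by their mean correlation with the others over all labels, whether or not read in enough cells, and grey where a gene was read in under 50% of cells. The upper left block of D1, with the Mcm genes, Cdc6, Rrm2 and Ccne1, is the darkest, and D2 is pale.

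Outside the 38 genes and the other lists, the genes whose levels went most with the score were Pcna-ps2 (mean rho 0.45 over the 3 labels), Cse1l (0.43), Tfdp1 (0.41), Etf1 (0.41), Hspa14 (0.41), Ccnd3 (0.40), Plaa (0.39), Ftsj3 (0.39), Bop1 (0.39) and Nup85 (0.38). Pcna-ps2 is a pseudogene copy of Pcna and may share its reads. Tfdp1 codes for the partner with which E2F proteins bind DNA, Ccnd3 for cyclin D3 and Cse1l for a nuclear export receptor, while Bop1 acts in ribosome assembly. The lowest were the ribosomal protein genes Rps27a (-0.40), Rpl31 (-0.37), Rpl36a (-0.37), Rps29 (-0.36) and Rps23 (-0.35). The ranking covered 2724 genes read in at least 50% of thinned cells of every label. Of the top 100, 17 were among the 38 genes, which are part of the score themselves, and 11 came from the wider list below.

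The wider list held 84 other genes of replication in the same 6 roles, from origin recognition to repair. At D1 over D0, 4 of 82 counted were at least 2-fold higher and 20 lower, at D2 over D0 5 of 81 were higher and 18 lower, and at D2 over D1 12 of 82 were higher and 12 lower. As shares, 4.88% were higher and 24.4% lower at D1 over D0, against 13.2% and 25.1% of all genes. At D2 over D0 they were 6.17% and 22.2%, against 9.74% and 28.1%. At D2 over D1 they were 14.6% and 14.6%, against 15.0% and 19.4%. The median ratios were -0.28, -0.20 and 0.13, beside -0.20, -0.24 and -0.07 over all genes.

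By role, the highest and lowest of the wider list at D1 over D0 were as follows. Orc2, a subunit of the origin recognition complex, had 1.04 and Topbp1, which helps to fire origins, had -2.17. Rpa3, another subunit of RPA, had 1.14 and the nuclease-helicase Dna2 had -1.81. Umps, which makes uridine monophosphate, had 1.25, while Cad, the enzyme of the first steps of the same pathway, had -2.16. The histone chaperone Asf1a had 0.63 and Atad2 had -1.50, E2f3 had 0.39 and E2f1 -1.95, and Brca2 was the lowest of the repair genes at -2.19.

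At D2 over D0, the kinase Cdc7, which activates the helicase, had the lowest ratio of the origin genes, -2.42, and Orc3 the highest, 1.17. Pold2, a subunit of a replicative polymerase, had 1.84 with means of 94.8 CPM in D0 and 341 CPM in D2, and Wdhd1 had -1.56. Dut, which removes dUTP, had 1.44, and Cad had -1.93. Uhrf1, which brings the methyltransferase Dnmt1 to newly made DNA, had -1.74 with means of 913 CPM in D0 and 273 CPM in D2, and Cenpu had 0.81. E2f1 had -3.23, from 34.3 to 2.75 CPM, and Fbxo5 had 0.51. Bard1, the partner of Brca1, had -2.42, and Fancd2 had 0.72.

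At D2 over D1 the extremes were Orc3 at 1.70 and Orc2 at -1.70, Prim2 at 1.98 and Top1 at -1.79, Shmt1 at 0.95 and Umps at -0.50, Cenpu at 1.85 and Casp8ap2 at -1.27, Cdk2 at 1.13 and Cdc25a at -1.88, and Fancd2 at 1.18 and Bard1 at -0.94. Within labels, the score of the wider list followed that of the 38 genes, with rho of 0.76 in D0, 0.90 in D1 and 0.70 in D2. The score of 40 genes of G2 and mitosis followed it little, with 0.09, 0.12 and 0.12. Of those 40, 4 were at least 2-fold higher and 2 lower at D1 over D0, 7 and 6 at D2 over D0, and 2 and 3 at D2 over D1. As shares these were 10% and 5%, against 13.2% and 25.1% of all genes, then 17.5% and 15%, against 9.74% and 28.1%, then 5% and 7.5%, against 15.0% and 19.4%.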

How the data were processed

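Single-cell RNA from scNMT-seq was deposited as a table of raw read counts per gene and well. Per the labels, the submitters' processing notes name HISAT2 and GRCm38. The counting tool, its annotation and its use of strand are not given in the sources used here. The authors' limits on cells were applied to these counts: over 200000 reads, over 2000 genes and a mitochondrial share under 0.15. The methods write that share as a percent, and it was taken as a fraction. This left 90, 50 and 93 of 96 wells, 233 in all, where the study's methods state 226 cells, and 0 columns were unmapped. Counts were scaled to CPM by the cell's total, averaged with equal weight per cell and compared as log2 with 1 CPM added. Genes read in at least 50% of cells of either label were counted against a 2-fold limit. Scores and correlations used cells thinned to 200000 reads, with 10 CPM added for scores. No wells held identical values. Exon lengths came from GENCODE on GRCm38 and promoters from RefSeq.

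The genes and lists were chosen by name with earlier results of these data known. Named genes were all 38 members, the highest and lowest gene of the wider list per role and comparison, and the 10 highest and 5 lowest genes by correlation with the score. One result of the wider list is not reported here. Intervals were exact (Clopper-Pearson for shares, Poisson for counts). Tools were Python 3.11.15, numpy 2.4.6, pandas 2.3.3, scipy 1.17.1, matplotlib 3.10.9, R 4.3.3 and edgeR 4.0.16, the last for TMM factors alone.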

Additional observations from a re-analysis of the deposited data

Results flagged for a closer look

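Reads of the 38 genes also stood in wells that did not pass the limits on reads, genes and mitochondrial share, which no comparison used. More than 3 such reads, the limit that a count of 0 allows, were present in 4 of 6 D0 wells, 34 of 46 D1 wells and 3 of 3 D2 wells that did not pass. Pooled over those wells, the 38 genes held 0.811%, 0.638% and 0.864% of reads, beside 0.858%, 0.817% and 0.976% on average in the cells that passed. No gene was at least 2-fold higher over D0 at one time and 2-fold lower at the other (0 of 38).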

How the results depend on the processing

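Values below are the counts of the 38 genes at least 2-fold apart and their median ratio. Without a filter on cells, D1 over D0 gave 5 higher, 7 lower and a median of -0.42 (12.2%, 39% and -0.63 over all genes), and D2 over D1 gave 2 lower. Summed reads gave 3 higher at D2 over D1 (14.2% of all genes). TMM factors gave 6 higher and a median of 0.25 at D1 over D0 (17.6% of all genes higher). Median-of-ratios factors gave 5 higher there (15.2%). TMM moved the median of all genes to 0.07 at D1 over D0 and 0.03 at D2 over D0. Plate columns 7 to 12 gave 6 higher and 5 lower at D1 over D0 (15.0% and 27.7% of all genes). They gave 3 higher at D2 over D0 (11.9%). Counted in either direction, these columns gave 11 at D1 over D0 and 8 at D2 over D0 (42.7% and 41.4%). Plate columns 1 to 6 gave 4 and 12 (36.3% and 42.2%). Medians over cells, added after seeing the data, gave 6 lower at D1 over D0 (26.2% of all genes). At D2 over D0 they gave 2 higher, 19 lower and a median of -0.95 (4.28%, 71.2% and -3.00 over all genes). At D2 over D1 they gave 2 higher, 22 lower and a median of -1.57 (2.88%, 67.1% and -2.32). Of the genes 2-fold apart at D2 over D1, the sign turned for E2f8 without a filter (-0.78). With medians it turned for Mcm4 (-0.20), Pola1 (-3.83) and E2f8 (-3.28). There, 13 of the 38 had a higher mean but a lower median, a count not made over all genes. Summed CPM in place of the score turned D2 minus D0 to 1170.2 CPM and D2 minus D1 to 1622 CPM, with 45.6%, 44% and 60.2% of cells high. With 1 CPM added, the score differences were -1.552 and -1.63 and 5.38% of D2 cells were high. A limit at the 75th percentile gave 35.6%, 38% and 1.08%. The median Mcm correlation in D0 was 0.58 with Pearson r and 0.44 in columns 7 to 12. The cause of these moves was not tested. The median ratio kept within 0.2 in 35 of 39 settings and comparisons, which still lets a median near 0 change sign. The pairwise correlation of the genes read in enough cells kept within 0.1 in 27 of 27. Beside medians of 0.13, 0.18 and 0.05 that limit is wide, so the count shows little. Single-gene ratios moved by more than counting error in 1106 cases, changed sign from past 2-fold in 4 and kept in 372. Shares of high cells left their interval in 7 cases and kept in 23. No paired analysis was possible because each label is 1 plate of cells, no result comes from a test, and well numbers name positions only.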

Other observations

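Replication-dependent histone genes, taken by symbol after the data were seen, summed to averages of 29.1, 139.7 and 175 CPM in D0, D1 and D2 cells at 200000 reads. The median cells had 20, 117.5 and 85 CPM, so D2 was above D1 by the mean and below it by the median. Their mRNA mostly lacks a polyA tail, and the library captured polyA RNA. Across cells, their sum had a Spearman correlation with the score of the 38 genes of 0.19 in D0 (90 cells), -0.38 in D1 (50 cells) and -0.05 in D2 (93 cells). The points share a cell's total. The mitochondrial share of reads had -0.19, 0.04 and -0.03 with the score over the same cells. Among the genes of the wider list, Shmt1, Uhrf1 and Rpa1 followed the score most, at mean correlations of 0.47, 0.46 and 0.45 over the 3 labels.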
